A study of Mus musculus with 6 samples.

Results

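The genes described here build the muscle side of the neuromuscular junction, the synapse through which a motor nerve commands a muscle fibre. They were chosen by name, 10 genes of the 54232 in the deposited count table, as the subunits of the muscle acetylcholine receptor (Chrna1, Chrnb1, Chrnd, Chrne and Chrng), the genes that gather the receptor under the nerve (Musk, Dok7, Rapsn and Lrp4) and the esterase that clears the transmitter (Ache). These genes and the gene lists below were chosen with earlier results of these data known. The shares over all genes beside their counts are therefore background and test nothing. Strand-marked mRNA libraries had been made from the tibialis anterior, a fast muscle at the front of the shin, of mice of the C57BL6 strain at an age of 1 month. Of the 6 libraries, 3 were wild type (WT 1, WT 2 and WT 3) and 3 carried the genotype label Delta 51, a deletion of exon 51 of Dmd, the dystrophin gene (D51 4, D51 5 and D51 6). Both groups share the strain, age, muscle and housing, and the labels name no treatment. The labels call the libraries biological replicates without naming the animals, so p-values measure the spread between these libraries.

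The muscle receptor is a ring of subunits that opens a cation channel when acetylcholine binds. Fetal muscle and fibres cut off from their nerve make a form with the gamma subunit (Chrng), whereas innervated adult fibres make a form with the epsilon subunit (Chrne) in its place. Receptors are held under the nerve by a cascade in which nerve-derived agrin binds Lrp4, Lrp4 activates the kinase Musk with the help of the adaptor Dok7, and rapsyn (Rapsn) anchors the receptors. In mature fibres these genes are transcribed mainly by the few nuclei beneath the synapse, while fetal and denervated fibres also transcribe receptor genes along their whole length.

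Dmd itself stood at 235 to 266 TMM-scaled CPM, reads of a gene relative to all assigned reads of its library, in WT and 46.4 to 51.1 CPM in D51, with no overlap, so that every library followed its label at the level of the whole transcript. Library totals were 15681945 to 21020353 assigned reads. CPM values carry a TMM factor (trimmed mean of M values) that evens out library composition, and fold changes are D51 over WT on the log2 scale with a standard error (SE). Of 14 mature fibre markers, 13 stood at high levels and Tnnc2, a fast troponin gene, was near 0 in both groups (0.516 ± 0.847 and 0.842 ± 0.361 CPM, SD, n = 3). The fast troponin genes Tnnt3 and Tnni2 were at 14000 ± 494 and 4873 ± 62.4 CPM in WT. Whether the low Tnnc2 counts come from the counting or from the muscle was not tested. Of 10 motor nerve genes, 5 had 0 counts in all 6 libraries, among them Chat, which makes acetylcholine, and the transporter genes Slc18a3 (acetylcholine) and Slc5a7 (choline). The cell bodies of motor neurons lie in the spinal cord, outside the dissected muscle.

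The stretches before the transcript starts of Chrng, Chrna1 and Chrne are shown because they belong to the fetal subunit, the subunit shared by both forms and the adult subunit. Each is the 250 bases before the start in RefSeq on GRCm38.p6, and capitals mark each E-box, the letters CANNTG bound by myogenic factors such as Myog and Myod1, and each N-box, the letters CCGGAA bound by ETS factors such as Gabpa and tied to synaptic transcription. Both strands were searched. CAGCTG and CAGGTG, the E-box cores preferred by myogenic factors, are among the CANNTG matches.
Chrng, chr1:87205561-87205810, forward strand: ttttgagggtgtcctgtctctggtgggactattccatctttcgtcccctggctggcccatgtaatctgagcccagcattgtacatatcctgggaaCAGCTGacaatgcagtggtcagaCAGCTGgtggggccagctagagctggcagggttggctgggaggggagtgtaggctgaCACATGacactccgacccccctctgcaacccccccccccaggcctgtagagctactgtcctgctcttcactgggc
Chrna1, chr2:73580339-73580588, reverse strand: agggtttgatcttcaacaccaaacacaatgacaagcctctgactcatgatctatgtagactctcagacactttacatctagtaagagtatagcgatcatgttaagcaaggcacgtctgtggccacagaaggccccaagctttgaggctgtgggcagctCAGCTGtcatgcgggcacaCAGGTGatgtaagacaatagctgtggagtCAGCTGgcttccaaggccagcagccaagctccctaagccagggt
Chrne, chr11:70619195-70619444, reverse strand: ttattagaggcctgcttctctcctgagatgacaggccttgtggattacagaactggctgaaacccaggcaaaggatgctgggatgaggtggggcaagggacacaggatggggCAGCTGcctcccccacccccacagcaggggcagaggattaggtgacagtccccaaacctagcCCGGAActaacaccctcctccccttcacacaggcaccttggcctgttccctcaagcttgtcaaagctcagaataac
The Chrng stretch held 2 CAGCTG matches and the Chrna1 stretch 2, together with 1 CAGGTG match. At least 2 CAGCTG matches occurred in 1.3% of all 32851 promoter windows of this length. The Chrne stretch held 1 CAGCTG match and 1 N-box, and 13.0% and 12.0% of windows held at least 1 of each. Of the 10 genes, 7 had an entry, and the N-box letters occurred in the window of Chrne and in none of the other 6 genes. Chrnb1 held 3 E-boxes, 1 of them CAGGTG, and Musk held 3, 1 of them CAGCTG. At least 3 E-boxes occurred in 12.2% of windows. These are matches of letters, and binding was not measured. RefSeq places the Chrng start inside the gene span that GENCODE gives, so the Chrng stretch lies within that span. Chrnd, Rapsn and Lrp4 are not shown.

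**Figure D1:**
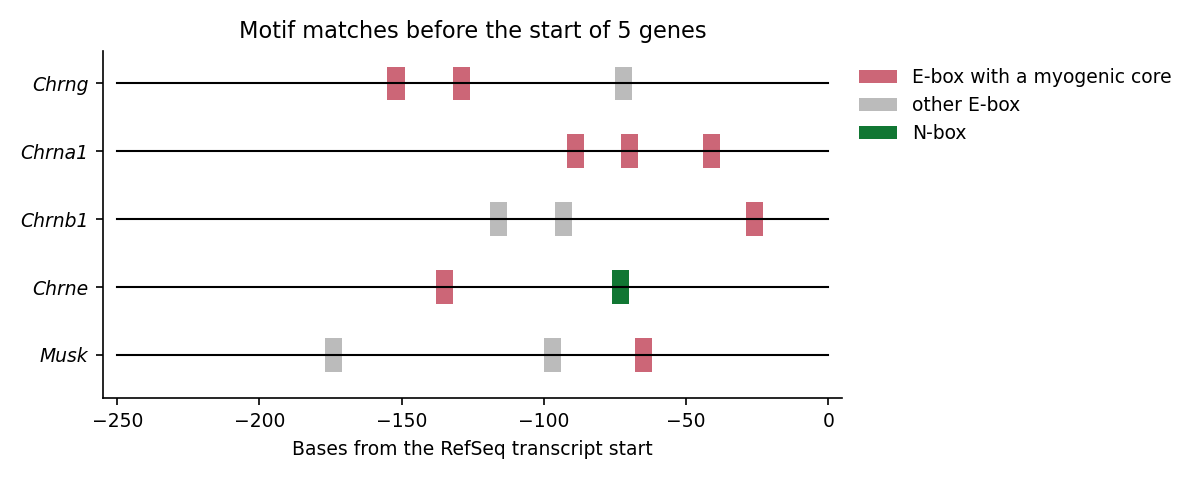
Positions of motif matches in the 250 bases before the RefSeq transcript start of 5 genes, with the start at 0. Red marks E-boxes with the core CAGCTG or CAGGTG, grey marks other E-boxes and green marks the N-box; Chrna1 has 3 red marks, Chrng 2, and the N-box is in Chrne.

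All 10 genes passed the expression filter, and 4 rose in D51 while 0 fell (edgeR quasi-likelihood test, Benjamini-Hochberg adjusted p under 0.05 over 14335 genes). Over all genes tested, 16.1% rose and 11.9% fell, 28.0% in all. The 4 that rose were receptor subunits, Chrna1, Chrnb1, Chrnd and Chrng, and their D51 libraries all lay above their WT libraries, which was so for 23.8% of all genes, with 21.7% lying wholly below and 45.5% without overlap in either direction. By adjusted p, DESeq2 and limma-voom also gave 4 and 0. At an unadjusted p under 0.05 the counts were 4 and 0 with edgeR and 5 and 0 with DESeq2 and with limma-voom. The share of all genes at that unadjusted threshold is not given, so these counts have no background to be read against. The authors' deposited table calls 4 of the 10 genes higher and 0 lower, where 19.1% and 18.8% of its 13958 genes are called. In the authors' deposited table the log2 fold changes are 5.52 for Chrng, 2.27 for Chrna1, 1.81 for Chrnd and 0.71 for Chrnb1. The median log2 fold change was 0.45 over the 10 genes and -0.01 over all genes tested. In whole muscle, more fibres or nuclei that express a gene and more RNA from each of them cannot be told apart.

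Chrng encodes the gamma subunit of the fetal receptor (ENSMUSG00000026253, chromosome 1, 87204657 to 87212694, forward strand). It was barely detected in WT, with 2, 1 and 5 reads in WT 1 to 3 against 169, 161 and 187 reads in D51 4 to 6. In scaled units these were 0.111, 0.0548 and 0.358 CPM against 7.23, 7.04 and 9.71 CPM. The lowest D51 library thus lay well above the highest WT library, and D51 6 was the highest. The group means were 0.175 ± 0.161 and 7.995 ± 1.49 CPM (SD, n = 3 each), which is a log2 fold change of 5.58 (edgeR adjusted p = 2.97e-04, SE 0.408, 95% interval 4.64 to 6.52). With only 8 WT reads the size of the fold is loose. The ratio of pooled rates, 517 reads against 8, was 49.6 with a 95% interval of 25.0 to 116 that covers counting error only. On the scale of log2 (deposited RPKM + pseudocount) the value was 3.98 with a pseudocount of 0.1 and 1.59 with 1, both called.

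Chrna1 encodes the alpha subunit, which carries the acetylcholine binding face and is present in both receptor forms (ENSMUSG00000027107, chromosome 2, 73563215 to 73580338, reverse strand). WT 1 to 3 held 13.8, 14.6 and 15.1 CPM, and D51 4 to 6 held 73.1, 72.6 and 69.7 CPM. Both groups were tight, and the gap between them was many times the spread within either. The ratio of the group means was 4.95, and on the log2 scale D51 was higher by 2.31 (edgeR adjusted p = 2.77e-05, SE 0.0847, 95% interval 2.11 to 2.50).

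Chrnd, the delta subunit gene, lies beside Chrng (ENSMUSG00000026251, chromosome 1, 87190607 to 87200070, forward strand). It was at 2.05, 3.40 and 1.93 CPM in WT and 9.07, 9.93 and 7.74 CPM in D51. Each D51 library was above every WT library, with WT 2 the highest of its group. On the log2 scale the rise was 1.84 (edgeR adjusted p = 0.00181, SE 0.234, 95% interval 1.31 to 2.38).

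Chrnb1 encodes the beta subunit, likewise shared by both forms (ENSMUSG00000041189, chromosome 11, 69784036 to 69795943, reverse strand). It was at 28.7, 32.8 and 27.9 CPM in WT and 54.0, 47.6 and 47.7 CPM in D51, with no overlap. Its rise was smaller than those of the other 3 called subunits, at a log2 fold change of 0.74 (edgeR adjusted p = 0.00227, SE 0.10, 95% interval 0.51 to 0.97). The 95% intervals of Chrnb1 and Chrna1 did not overlap.

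Chrne, the epsilon subunit of the adult receptor, was not called (ENSMUSG00000014609, chromosome 11, 70614883 to 70619216, reverse strand). It was at 8.69, 8.38 and 8.02 CPM in WT and 10.3, 7.92 and 12.8 CPM in D51. D51 5 lay below all WT libraries, and D51 4 and D51 6 lay above them. The log2 fold change was 0.30 (SE 0.179, edgeR adjusted p = 0.243), and its 95% interval ran from -0.11 to 0.71. It was called under library-size scaling (0.64) and on the deposited RPKM (0.61 and 0.53).

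**Figure D2:**
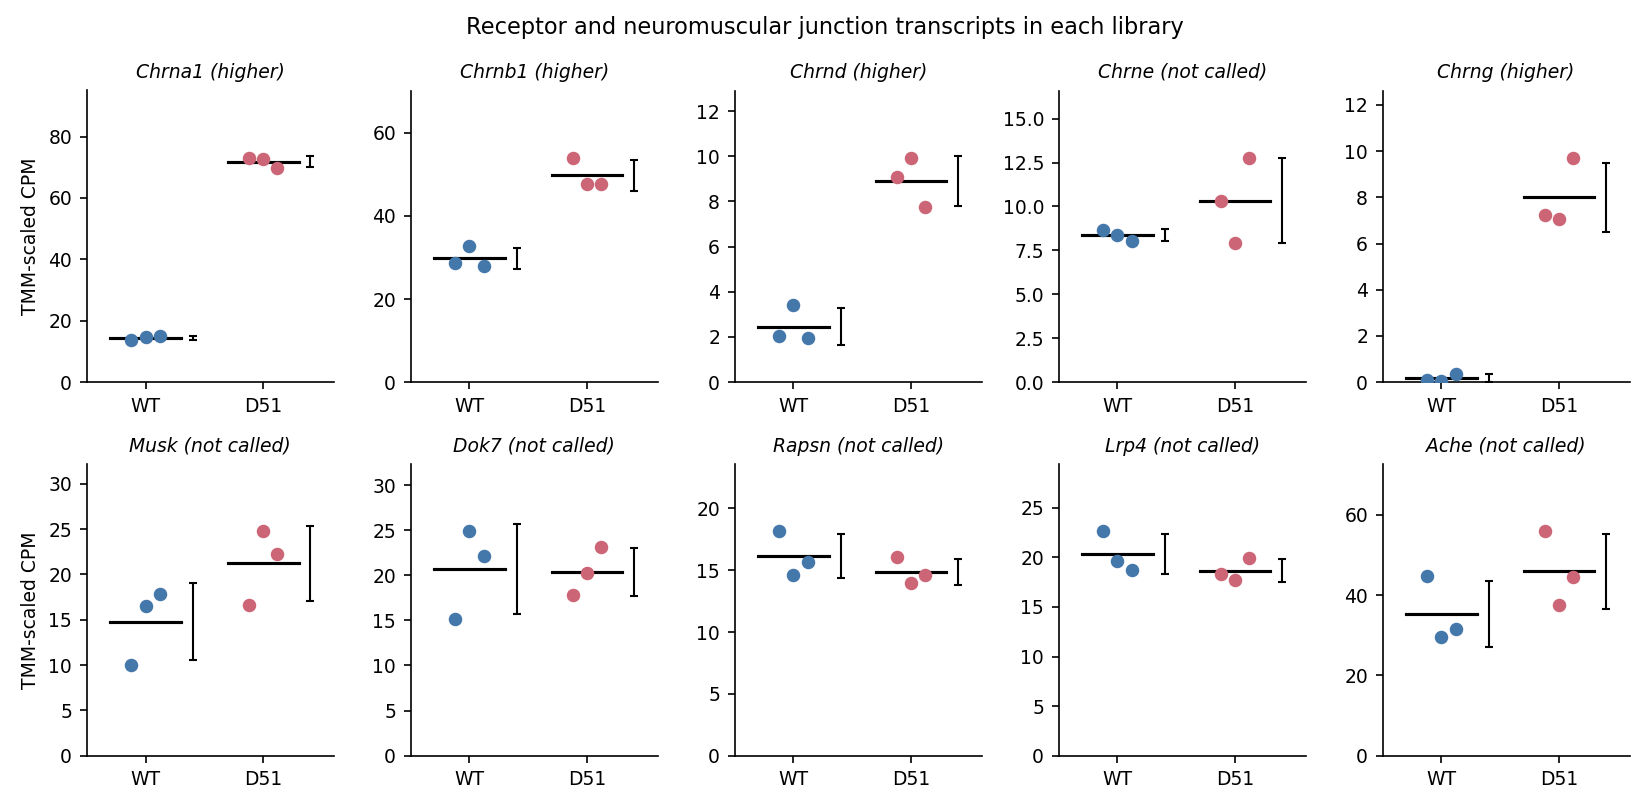
TMM-scaled CPM of each gene, with 1 point per library (blue, WT; red, D51), the group mean as a bar and the SD as the whisker at its right; each vertical axis starts at 0 and has its own range. The groups are apart for Chrna1, Chrnb1, Chrnd and Chrng and overlap for the other 6 genes.

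The balance between receptor forms was also followed within each library, where scaling between libraries cancels. Per base of exon, Chrng made up 0.515%, 0.265% and 1.78% of the Chrng and Chrne transcripts in WT 1 to 3, and 22.2%, 26.5% and 23.6% in D51 4 to 6. The means were 0.853 ± 0.813% and 24.1 ± 2.23% (SD, n = 3 each), a difference of 23.2 percentage points. From counts not divided by exon length the difference was 41.8 points, in the same direction, so its size rests on the exon lengths used. Epsilon transcripts thus stayed the more abundant of the pair in every D51 library. Per base of exon, the log2 ratio of Chrne to Chrna1 was 0.71, 0.57 and 0.46 in WT and -1.45, -1.82 and -1.07 in D51. On that scale Chrne exceeded Chrna1 in each WT library and fell short of it in each D51 library. In reads, Chrne was below Chrna1 in WT too (157, 153 and 112 against 249, 267 and 211). The crossover thus rests on the exon lengths used, and the difference in log2 ratio between the groups does not. For both ratios the groups did not overlap, and a two-sided exact permutation test gave p = 0.1, the smallest that 3 against 3 libraries allow (adjusted over the 2 ratios, 0.1).

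The make-up of the whole subunit pool differed between the groups. Summed over the 5 genes, receptor transcripts reached 20.8 ± 1.29 CPM per kilobase of exon in WT and 46.8 ± 1.92 in D51 (SD, n = 3 each). Chrna1 supplied 15.9 ± 1.25% of that sum in WT and 35.0 ± 1.70% in D51, while Chrnb1 supplied 56.5 ± 1.42% and 42.0 ± 1.91%. The Chrne share was 23.8 ± 1.55% in WT and 13.0 ± 2.84% in D51 although its own level was not called lower. The Chrnd share was 3.55 ± 0.937% and 5.81 ± 0.877%, and the Chrng share 0.208 ± 0.198% and 4.11 ± 0.751%. None of these 5 shares overlapped between the groups. They are descriptions of 1 pool that adds up to the whole, and a share can shrink because another grows. Their sizes also rest on the exon lengths used.

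**Figure D3:**
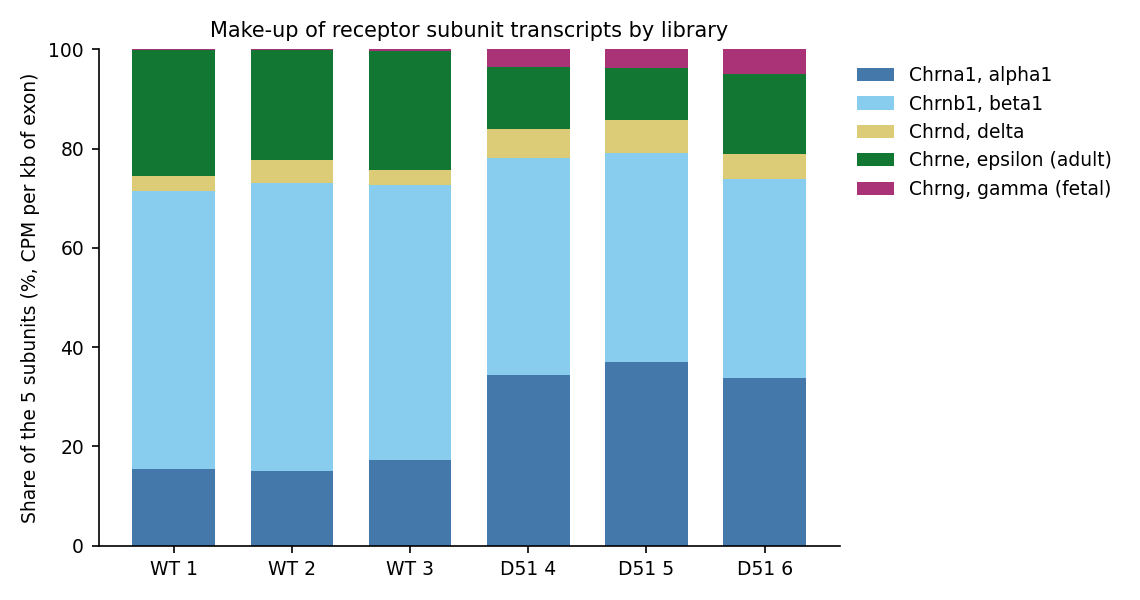
Share of each subunit in the receptor transcripts of a library, in percent of the summed CPM per kilobase of exon, with 1 stacked bar per library. The alpha share (dark blue) is at most 17.3% in WT and 33.9 to 37.0% in D51, and the gamma share (purple) is 0.433% or less in WT and 3.57 to 4.97% in D51.

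Among the genes that gather the receptor there were no calls. Of Musk, Dok7, Rapsn and Lrp4, 0 were called by edgeR, 0 had an unadjusted p under 0.05, and DESeq2 and limma-voom called 0 (each with 1 at an unadjusted p under 0.05). By edgeR 28.0% of all genes tested were called, and 4 genes are too few to tell 0 calls from that share. The share of all genes at the unadjusted threshold is not given. Musk encodes the muscle-specific kinase at the centre of the cascade (ENSMUSG00000057280, chromosome 4, 58285960 to 58374303, forward strand). It was at 9.96, 16.5 and 17.8 CPM in WT and 16.7, 24.8 and 22.2 CPM in D51, so that D51 4 fell among the WT values. The log2 fold change was 0.53 (95% interval -0.003 to 1.05, edgeR adjusted p = 0.123), the highest of the 4, and it was called under library-size scaling (0.88), without an expression filter (0.54) and on the deposited RPKM (0.88 and 0.73). Dok7, the cytoplasmic adaptor (ENSMUSG00000044716, chromosome 5, 35056766 to 35087839, forward strand), was at 15.2, 24.9 and 22.1 CPM in WT and 17.8, 20.3 and 23.1 CPM in D51. Its D51 values fell inside the WT range (log2 fold change -0.02, 95% interval -0.45 to 0.40, edgeR adjusted p = 0.938). WT 1 held the lowest value of both Musk and Dok7.

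Rapsn encodes rapsyn, the scaffold that binds receptors one to another (ENSMUSG00000002104, chromosome 2, 91035620 to 91045729, forward strand). It was at 18.1, 14.6 and 15.7 CPM in WT and 16.0, 14.0 and 14.6 CPM in D51, overlapping groups with a log2 fold change of -0.12 (95% interval -0.39 to 0.15, edgeR adjusted p = 0.482). Its exons share 4 bases with the antisense gene Gm13778, which had 53 reads in all. Lrp4, the agrin receptor (ENSMUSG00000027253, chromosome 2, 91457511 to 91513779, forward strand), was at 22.6, 19.7 and 18.7 CPM in WT and 18.3, 17.7 and 19.9 CPM in D51. These values also overlapped (-0.13, 95% interval -0.38 to 0.12, edgeR adjusted p = 0.418). The upper ends of both intervals lie far below the log2 fold changes of Chrna1, Chrnd and Chrng. Scaled to library size alone, the signs of Dok7, Rapsn and Lrp4 turned positive (0.33, 0.23 and 0.22), uncalled as before, and the median of all genes moved from -0.01 to 0.34. The Dok7 value was also above 0 without WT 2 (0.13), WT 3 (0.02) or D51 4 (0.07).

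Ache encodes acetylcholinesterase, which ends the signal in the synaptic cleft (ENSMUSG00000023328, chromosome 5, 137287519 to 137294466, forward strand). It was at 44.7, 29.5 and 31.5 CPM in WT and 55.9, 37.5 and 44.4 CPM in D51. WT 1 stood above the other WT libraries and above D51 5 and D51 6, and D51 4 was the highest of all. The difference was 0.38 on the log2 scale (edgeR adjusted p = 0.175, SE 0.193, 95% interval -0.06 to 0.83). It passed the threshold without WT 1 (0.58, edgeR adjusted p = 0.0488), so that 1 library decides the call, and under library-size scaling (0.73), without an expression filter (0.40) and on the deposited RPKM (0.73 and 0.66). Whether the authors' counting used strand is not given, and its exons share 98 bases with the antisense gene Gm42456, which had 2 reads.

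**Figure D4:**
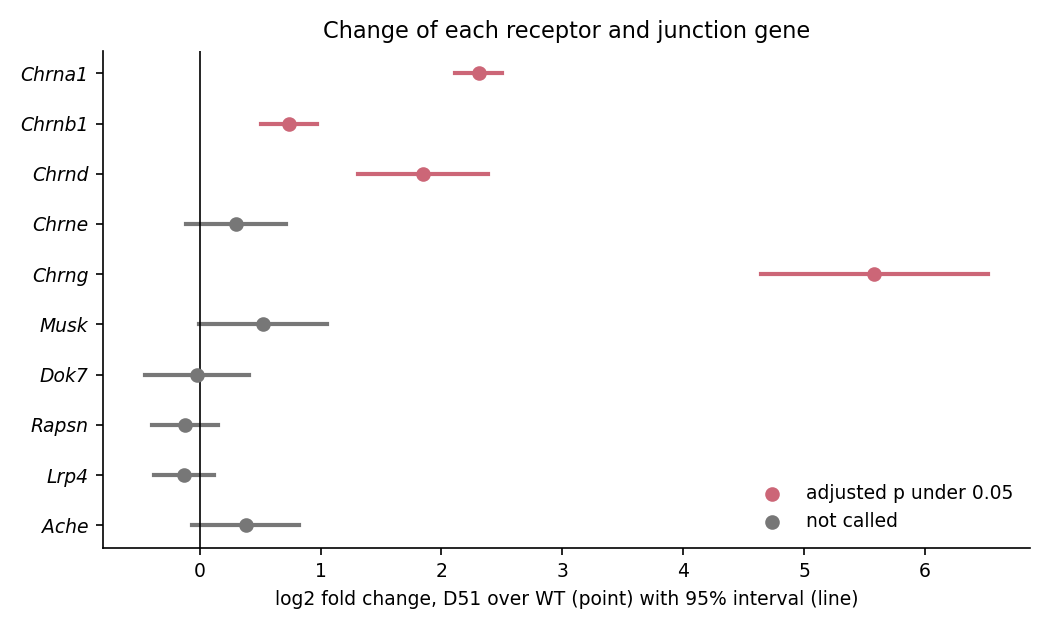
Log2 fold change of each gene, D51 over WT (points), with its 95% interval (lines); red marks genes with an edgeR adjusted p under 0.05. The intervals of the 4 red genes lie above 0, from 0.51 for the lower end of Chrnb1 to 6.52 for the upper end of Chrng, and the 6 grey intervals include 0.

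Receptor and clustering transcripts were set against each other within libraries, a ratio chosen after the values were seen and given without a test. The 5 subunits summed to 1.10, 1.10 and 0.975 times the 4 clustering genes in WT 1 to 3, per base of exon. In D51 4 to 6 the ratio was 2.53, 2.16 and 2.21. The clustering sum was 19.7 ± 1.09 CPM per kilobase in WT and 20.4 ± 1.06 in D51 (SD, n = 3 each), a difference within their SDs.

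Per kilobase of exon, the WT order ran from Chrnb1 (11.8 ± 1.03 CPM per kilobase) through Rapsn (8.97 ± 1.00), Ache (7.63 ± 1.78), Chrne (4.95 ± 0.197), Dok7 (4.85 ± 1.17), Musk (3.91 ± 1.12), Chrna1 (3.31 ± 0.154) and Lrp4 (1.94 ± 0.195) to Chrnd (0.748 ± 0.248) and Chrng (0.0419 ± 0.0388). The neighbours Rapsn and Ache, and Chrne, Dok7, Musk and Chrna1 in turn, did not differ beyond their SDs. In D51 Chrnb1 again led (19.7 ± 1.45), and Chrna1 stood next (16.4 ± 0.412) in place of the seventh. Ache (9.94 ± 2.01) and Rapsn (8.25 ± 0.593) followed within their SDs, and then Chrne (6.12 ± 1.44), Musk (5.62 ± 1.09) and Dok7 (4.77 ± 0.622), also within theirs. Chrnd (2.71 ± 0.336) was above Chrng (1.92 ± 0.358), and Chrng and Lrp4 (1.78 ± 0.111) did not differ beyond their SDs. The order rests on the exon lengths used. In CPM not divided by length, Ache had the highest WT mean (35.25 ± 8.25, against 29.8 ± 2.62 for Chrnb1). Chrna1 then had the highest D51 mean (71.8 ± 1.81, against 49.75 ± 3.67 for Chrnb1).

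Genes with the most similar profiles were found as the smallest root mean square distance between centred log2 CPM values over the 6 libraries, among 12075 genes. Much of such likeness comes from the 2 groups alone. The nearest to Chrng were Clec4d, a lectin gene of myeloid cells (0.15 log2 units), and Mymk, the myoblast fusion gene (0.28). A small count added before taking logs draws values near 0 together. Clec4d had 0, 0 and 2 WT reads and a log2 fold change of 6.56, against 5.58 for Chrng. Nearest to Chrna1 were the annexin gene Anxa4 (0.13) and Ccdc141 (0.16). Nearest to Chrnb1 were Nt5c2 and Hspa2 (0.04 and 0.07), and nearest to Chrnd were Prune2 and Pdk3 (0.22 and 0.25). Gadd45a, a gene known to respond to denervation, was nearest to Musk (0.08), followed by Frmd4b (0.09). Like Musk, Gadd45a was lowest in WT 1 (13.8 CPM) and highest in D51 5 (40.4 CPM). For Chrne they were Mapk8ip1 and Gdf11 (0.07 and 0.08), for Dok7 Plcb4 and Ptpdc1, for Rapsn Dus4l and Hoxc4, for Lrp4 Atxn1l and Pip5k1c, and for Ache Pcdhb17 and Fam20c, at 0.03 to 0.06.

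Neuronal relatives of the receptor subunits were also counted. Of 11 neuronal nicotinic subunit genes, 4 had 0 reads in all libraries (Chrna3, Chrna6, Chrnb3 and Chrnb4) and 3 passed the filter. Chrna4 fell from 58 reads in all in WT to 13 in D51, or 1.11 ± 0.510 to 0.196 ± 0.0350 CPM (log2 scale, -2.48, edgeR adjusted p = 0.00692, SE 0.456). Its direction was opposite to that of the muscle alpha subunit, and it did not pass the expression filter when WT 1 or WT 2 was left out. Chrna10, named after its values were seen, was at 3.54, 2.90 and 3.37 CPM in WT and 1.16, 2.32 and 2.02 CPM in D51, with all D51 libraries below WT but no call (-0.84, edgeR adjusted p = 0.0551). DESeq2, the likelihood-ratio test and limma-voom each called 2 of the 3 tested neuronal genes lower, against 1 with the edgeR quasi-likelihood test.

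The wider agrin and neuregulin pathway moved in both directions. Of 21 tested genes, 7 rose and 4 fell (median log2 fold change 0.03, against -0.01 for all genes). Of all genes tested, 16.1% rose and 11.9% fell. The list counts were 2 and 3 without WT 2, 4 and 2 without D51 5, 6 and 2 without D51 4, and 11 and 1 under library-size scaling. Calls over all genes moved too, from 2309 and 1701 of 14335. They were 1346 and 663 without WT 2, 1629 and 759 without D51 5, and 1688 and 986 without D51 4. The other leave-outs gave 2014 and 1229 (WT 1), 1837 and 1242 (WT 3), and 2662 and 2157 (D51 6). Each leave-out tested 14490 to 14837 genes. Library-size scaling gave 5394 and 334. DESeq2 gave 2270 and 1784, and the fit without an expression filter gave 2870 and 1772 of 28485. These all-gene counts also belong beside the list counts that follow. Agrn, whose nerve-made form is the ligand of Lrp4 and which muscle also makes, was at 26.8 ± 2.11 CPM in WT and 21.4 ± 1.75 in D51 and was just short of a call (-0.32, edgeR adjusted p = 0.0505), with a call when WT 3 was left out (-0.39) and a value of 0.03 under library-size scaling. It was also called with DESeq2 size factors, limma-voom and a robust fit, at -0.33, -0.33 and -0.32. Pak1, a kinase that acts below Musk, rose from 19.9 ± 2.05 to 43.6 ± 2.84 CPM (1.13, SE 0.105, edgeR adjusted p = 5.89e-04). Pdzrn3, a ubiquitin ligase that binds Musk, fell from 125 ± 15.6 to 75.6 ± 9.38 CPM (-0.73, SE 0.128, edgeR adjusted p = 0.00597). Nrg1, the neuregulin gene, had 1 read in WT and 8 in D51. The neuregulin receptor gene Erbb3 was not called (0.46, edgeR adjusted p = 0.0812), nor were the ETS factor genes Gabpa (-0.12) and Etv5 (0.15), with Gabpa at 0.23 under library-size scaling. Erbb3 and Etv5 were called under that scaling (0.81 and 0.50), and Erbb3 also without an expression filter (0.47). Named after their values were seen, Erbb2 (a neuregulin receptor gene) and Etv4 (an ETS factor gene) were called higher. Their log2 fold changes were 0.62 and 0.69 (edgeR adjusted p = 0.0205 and 0.0427).

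In the synaptic basal lamina, 2 of 11 tested genes rose and 5 fell, where 16.1% and 11.9% of all genes did. The median log2 fold change of the list was above 0 (0.23). The sign of that median turned without WT 2 (-0.16), WT 3 (-0.12), D51 4 (-0.08) or D51 5 (-0.02) and without an expression filter (-0.07). The counts were 0 and 3 without WT 2, without WT 3 or without D51 4, 2 and 3 without D51 5, 0 and 5 without D51 6, and 4 and 1 under library-size scaling. Colq, the collagen tail that ties acetylcholinesterase to the cleft, had 6.46 ± 1.10 CPM in WT and 7.56 ± 1.20 in D51, with no call (0.23, edgeR adjusted p = 0.377). Bche, the related butyrylcholinesterase, fell from 15.7 ± 1.23 to 9.24 ± 1.33 CPM (-0.76, SE 0.136, edgeR adjusted p = 0.00618), a call lost under library-size scaling (-0.40) and on the deposited RPKM (-0.40 and -0.27 with pseudocounts of 0.1 and 1). Col4a4, a chain of the collagen IV found at the synapse, fell from 8.74 ± 1.12 to 3.72 ± 1.22 CPM (-1.24, SE 0.236).

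Of 13 postsynaptic scaffold and synaptic nucleus genes, 2 rose and 5 fell (median -0.12), where 16.1% and 11.9% of all genes did. The counts were 1 and 4 without WT 2, 2 and 3 without WT 1 or D51 4, and 5 and 2 under library-size scaling. The syntrophin gene Sntb1 rose from 9.62 ± 1.01 to 22.3 ± 4.02 CPM (1.21, SE 0.159, edgeR adjusted p = 0.00200). Scn4a, the sodium channel that carries the action potential away from the synapse, fell from 574 ± 64.3 to 308 ± 75.9 CPM (-0.90, SE 0.178, edgeR adjusted p = 0.00882). Plec, which encodes the linker plectin, fell from 1215 ± 151 to 650.2 ± 38 CPM (-0.90, SE 0.124). Prkar1a, a kinase subunit gathered at the junction, rose from 213 ± 11 to 290 ± 25.2 CPM (0.44, edgeR adjusted p = 0.0145), a call lost without WT 2 (0.39). Utrn encodes utrophin, the dystrophin relative of the synaptic membrane, and was at 94.6 ± 2.36 and 75.8 ± 7.02 CPM. Its call (-0.32, edgeR adjusted p = 0.0367) ended without WT 1 (-0.35), WT 2 (-0.31), WT 3 (-0.32), D51 4 (-0.25) or D51 5 (-0.32) and without an expression filter (-0.30), and its sign turned under library-size scaling (0.03).

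Of 16 tested genes known to respond to denervation or activity, other than the receptor subunits, 7 rose and 1 fell (median 0.45). Among all genes tested the shares were 16.1% and 11.9%. The list median was 0.69 without WT 1 and 0.81 under library-size scaling, where 10 of the list rose and 1 fell. Without an expression filter 9 rose and 2 fell, against 2870 and 1772 of 28485 over all genes. Myog, a myogenic factor whose target sequence is the E-box, was at 2.99, 3.18 and 1.65 CPM in WT and 30.9, 52.4 and 24.1 CPM in D51 (3.75, SE 0.349, edgeR adjusted p = 5.89e-04). Dach2, a repressor of Myog in innervated muscle, fell from 11.5 ± 2.01 to 1.15 ± 0.170 CPM (-3.31, SE 0.204). Ncam1, a cell adhesion gene that spreads along denervated fibres, rose from 6.17 ± 1.28 to 23.6 ± 3.39 CPM (1.94, SE 0.176), and Runx1, a transcription factor induced by denervation, from 3.58 ± 1.43 to 27.2 ± 7.36 CPM (2.95, SE 0.299). Hdac4, which represses Dach2 after denervation, was not called (-0.37, edgeR adjusted p = 0.0997). Named after their values were seen, the ubiquitin ligase genes Trim63 and Fbxo32, which denervation is known to raise, were at -0.18 and -0.62 on the log2 scale, with overlapping groups and no call (edgeR adjusted p = 0.660 and 0.158).

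**Figure D5:**
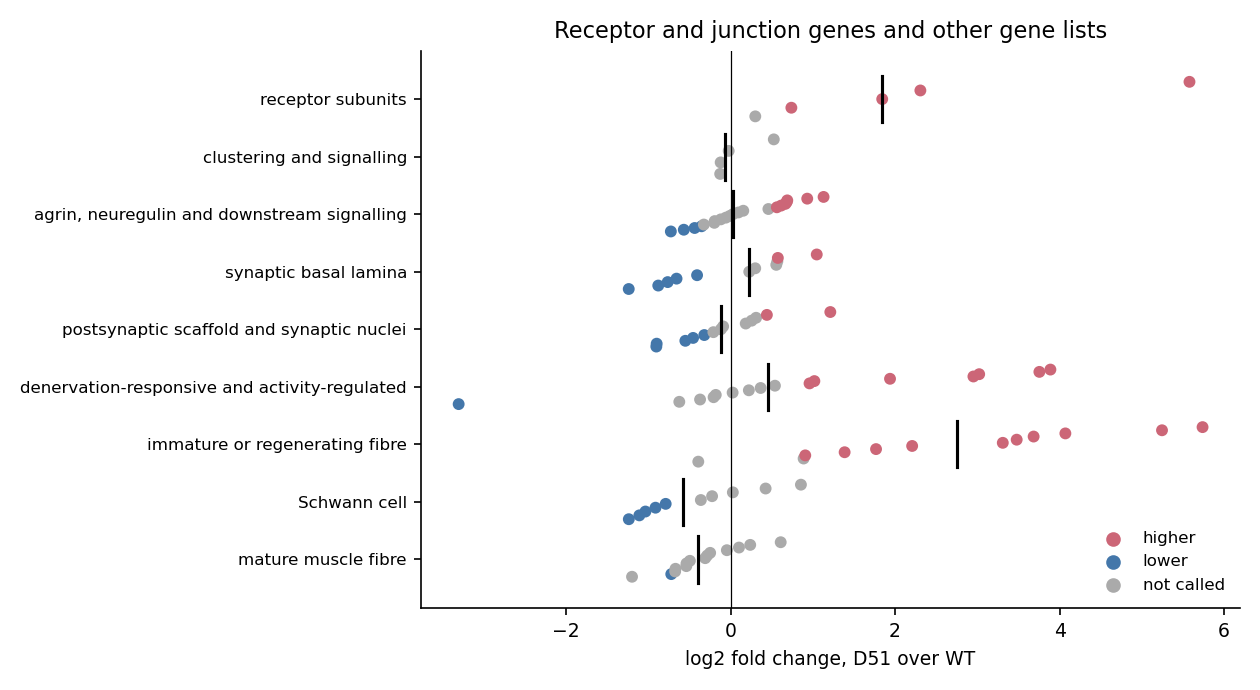
Log2 fold change of every tested gene in 9 lists, D51 over WT, with 1 point per gene (red, higher; blue, lower; grey, not called) and the list median as a black bar. The receptor subunits have a median of 1.84 and the clustering genes of -0.07, and the immature fibre genes have the highest median, 2.76.

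Markers of other cells and fibre states moved in the same libraries as the receptor genes. Each count below stands beside the 16.1% of all genes tested that rose and the 11.9% that fell. Of 12 genes of immature or regenerating fibres, 10 rose (median 2.76), with a summed level of 1308 to 1439 CPM in WT and 1504 to 2405 CPM in D51. Myh8, the neonatal myosin, made up most of the WT sum and lay the other way, at 977 ± 25.5 CPM in WT and 744 ± 142 CPM in D51, with all D51 libraries below WT and no call (-0.39, edgeR adjusted p = 0.0772). DESeq2, the fit without an expression filter and the fit without D51 6 each called 1 gene of the list lower. Myh8 was named after its values were seen. Myh3, the embryonic myosin, was at 6.75 to 9.67 CPM in WT and 128, 87.5 and 193 CPM in D51, and Mymk at 0.166, 0.274 and 0.716 CPM against 14.3, 11.8 and 15.8 CPM. D51 6 was the highest library for Chrng, Myh3 and Mymk and the lowest D51 library for Chrna1, Chrnd and Myog. The 3 D51 values of Chrna1 lay close together (73.1, 72.6 and 69.7 CPM). The immature fibre list was split by library. D51 6 was also the highest for Tnnt2 and Igf2. D51 4 was the highest for Actc1, Myl4, Nes, Ankrd1, Peg3 and Dlk1, D51 5 for Mymx and a WT library for Myh8. Of 9 macrophage markers 9 rose (summed level 65.0 to 132 CPM in WT, 501 to 1153 CPM in D51), and of 6 satellite cell markers 1 rose (65.9 to 72.9 and 80.5 to 96.6 CPM), or 0 with any 1 of WT 1 to 3, D51 4 and D51 5 left out and 4 under library-size scaling and on the deposited RPKM. Of 10 tested Schwann cell genes 5 fell, with a summed level of 107 to 120 CPM in WT and 77.0 to 83.7 CPM in D51. That count was 3 without WT 2, WT 3, D51 4 or D51 5, and 3 rose and 3 fell under library-size scaling. The 14 mature fibre markers summed to 180000 to 181700 CPM in WT and 115400 to 159100 CPM in D51, with 1 called lower (Neb), or 10 without D51 6, 0 without WT 1, WT 2, WT 3 or D51 4 and 7 with DESeq2. Of 7 markers of fibro-adipogenic progenitors 4 rose (594 to 797 and 909 to 1077 CPM), of 7 endothelial markers 4 fell (468 to 552 and 329 to 412 CPM) and of 5 erythroid genes 3 fell (105 to 175 and 59.9 to 98.6 CPM). The erythroid count was 0 without WT 1, D51 5 or D51 6, 2 without WT 2 or WT 3 and 5 without D51 4, and both falling counts were 0 under library-size scaling. The part of these shifts in the receptor results was not tested.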

How the data were processed

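Whole-muscle mRNA of 6 libraries was analysed. The submitters' processing notes name the build GRCm38 (mm10), featureCounts 1.6.0, FastQC 0.11.4 and edgeR 3.30.1. No source used here names the aligner, the strand setting or the annotation release. The authors deposited raw counts per gene with exon lengths, RPKM values for a subset of genes, and a table with log2 fold changes and log2 CPM, a likelihood-ratio score, p-values and −log10 p-values. Coordinates come from GENCODE release M21 on GRCm38, where 54165 of 54232 gene IDs were found and the exon lengths of the 10 genes are identical, and promoter sequences from RefSeq (GRCm38.p6).

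Counts were tested with edgeR 4.0.16 in R 4.3.3 (TMM, default expression filter, quasi-likelihood F-test, Benjamini-Hochberg over 14335 genes, two-sided, threshold 0.05). The common biological coefficient of variation was 0.155. The SE is the absolute log2 fold change divided by the root of F. The test was tried on simulated counts. Within-group chi-square values per degree of freedom were 8.81 to 47.6, so no library repeats another. Alternatives were 3 other scalings, 2 other filters, DESeq2 1.42.0, limma-voom and limma on log2 RPKM (limma 3.58.1), a likelihood-ratio test, a robust fit, a replicate block and each library left out. Genes named are the 10 members, Dmd, a fixed set of junction genes, called list members with the smallest adjusted p (up to 4 in each direction) and the 2 nearest profiles of each member. Some genes that this rule names are not reported here. The members and lists were chosen with earlier results of these data known.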

Additional observations from a re-analysis of the deposited data

How the results depend on the processing

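Each of the 4 called subunits kept its direction and its call under all 18 alternatives. Under library-size scaling and limma on log2 RPKM (pseudocount 0.1 or 1), 7 members were called higher in place of 4. Over all genes, in the same order, 5394 of 14335, 5222 of 13946 and 5070 of 13946 were called higher, and 334, 308 and 308 lower. The main fit called 2309 of 14335 higher and 1701 lower. Under these 3 settings, in that order, the added calls were Chrne (0.64, 0.61 and 0.53), Musk (0.88, 0.88 and 0.73) and Ache (0.73, 0.73 and 0.66), and values turned positive for Dok7 (0.33, 0.34 and 0.28), Rapsn (0.23, 0.23 and 0.21), Lrp4 (0.22, 0.21 and 0.15), Agrn (0.029, 0.023 and 0.018), Gabpa (0.23, 0.23 and 0.21) and Utrn (0.028, 0.025 and 0.022). Neither RPKM nor library-size scaling carries a TMM factor. Without an expression filter Musk (0.54) and Ache (0.40) were called; the cause was not tested. With a replicate block on the numbers in the sample descriptions they were also called (0.54 and 0.39), with 4 subunits called as before, and so were Agrn (-0.33) and Erbb3 (0.46) in the wider pathway. Deviations of same-numbered libraries from their group means correlated at r = 0.35, -0.01 and 0.06, and those of differently numbered libraries at -0.22 to 0.15. With 3 libraries in each group, these values cannot decide whether the numbers mark a pairing. With each library left out, log2 fold changes ran from 2.27 to 2.33 for Chrna1, 0.68 to 0.81 for Chrnb1, 1.70 to 2.15 for Chrnd, 5.13 to 6.49 for Chrng, 0.12 to 0.47 for Chrne, 0.30 to 0.67 for Musk, -0.21 to 0.13 for Dok7, -0.20 to -0.03 for Rapsn, -0.19 to -0.05 for Lrp4 and 0.21 to 0.58 for Ache. Depth limits Chrng most, with 8 reads in WT.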
